A study of Canis lupus familiaris with 34 samples.

Results

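The ligands and receptors of the epidermal growth factor (EGF) family were followed across canine hemangiosarcoma, a malignancy of cells that form blood vessels, and 7 other lesions. The members were 6 ligands (EREG, AREG, HBEGF, TGFA, BTC and NRG1) and 4 receptors (EGFR, ERBB2, ERBB3 and ERBB4). They were read from the 19 probe sets whose only gene symbol in the array annotation is one of these 10, of 29254 probe sets with 1 symbol for 15115 genes. The members were picked with their levels by tumor type in view, so differences between tumor types are given as descriptions, without tests. RNA was hybridized to Affymetrix Canine_2 arrays, and levels are the authors' deposited log2 intensities, on which 1 unit is a 2-fold difference.

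The 34 arrays held lines cultured from 10 splenic hemangiosarcomas, 6 from golden retrievers (ChadG4, ChadG6, ChadG8, Frog, Journey and Tucker) and 4 from other breeds. The other breeds were a Rottweiler (Joey), a Golden Retriever x Great Pyrenees cross (DD1), a Portuguese Water Dog (ChadP9) and a Dalmatian (Dal4). Low-passage cultures came from 3 splenic hematomas, a benign mass of blood and vessel-lining cells, of a golden retriever (Pippin), a Standard Poodle (Baxter) and a Keeshond (Kylie). The remainder were 5 osteosarcoma lines from bone of golden retrievers and primary cells of 3 leukemias and 13 lymphomas, all from golden retrievers except Rascal, a mix. The leukemias were 1 acute lymphoblastic (Rascal) and 2 chronic lymphocytic (Maddle and Forrest), and the lymphomas 6 diffuse large B cell, 1 marginal zone (Bitsy) and 6 T-zone. The labels give no treatment and no normal tissue, and the dogs' ages, which the study lists apart from them, were not used here. Hemangiosarcoma and hematoma cells had been grown in medium chosen for endothelium, and leukemia and lymphoma cells had not been cultured, so culture and tumor type cannot be told apart between them. The study does not give the medium of the osteosarcoma lines, so medium and tumor type may differ together there as well.

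Marker genes bore out some labels more than others. Of 8 endothelial markers, 0 to 4 lay above the array median in a hemangiosarcoma line, with 4 in ChadP9 and 3 in ChadG8 and DD1. PECAM1, CDH5 and TEK lay above it in none of the 10 lines, so these counts came from the other markers of the list. The count was 1 to 3 in hematoma cultures, 2 to 3 in osteosarcoma lines and 2 to 6 in leukemia and lymphoma samples, so the list did not separate the groups by the array median. Of 9 mural cell and fibroblast markers, 7 or 8 lay above it in every hemangiosarcoma line and 8 in every hematoma and osteosarcoma culture. Of 4 osteoblast markers, 0 to 2 lay above it in an osteosarcoma line. In every leukemia and lymphoma sample 5 of 5 T cell markers and 2 to 4 of 4 B cell markers lay above it. The B cell count was 3 or 4 in diffuse large B cell lymphoma and 3 in T-zone lymphoma, so these 2 types were not separated by it. Hybridization control signals were 9.25 to 9.78 in hemangiosarcoma lines, 9.45 to 10.16 in hematoma cultures, 10.00 to 10.82 in osteosarcoma lines and 10.04 to 11.32 in leukemia and lymphoma samples. Their part in any difference below was not tested.

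EGF family ligands are made as membrane proteins that proteinases of the ADAM family release from the cell surface. EREG, AREG, HBEGF, TGFA and BTC bind EGFR, EREG, HBEGF and BTC bind ERBB4 as well, and NRG1 binds ERBB3 and ERBB4. A bound receptor pairs with another and starts the RAS and PI3 kinase pathways. ERBB2 has no known ligand and serves as a partner, and ERBB3 has a weak kinase. Around blood vessels, EREG is known as a mitogen of vascular smooth muscle cells.

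The 10 members were not alike in how much they varied over the arrays. EREG, NRG1, EGFR, ERBB3 and ERBB4 spanned 3.93 to 7.41 log2 units between their lowest and highest arrays, while AREG, HBEGF, TGFA, BTC and ERBB2 spanned 0.98 to 1.96. A span of at least 3 units was seen for 29.0% of all genes. AREG lay above the array median on 0 of 34 arrays, as did 19.9% of all genes, ERBB3 on 1, HBEGF on 3, BTC on 6, EREG on 12, NRG1 on 13, ERBB2 on 20, EGFR on 22, and TGFA and ERBB4 on all 34. The plot of every member on every array shows the variable members as rows that change from one tumor type to the next.

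**Figure D1:**
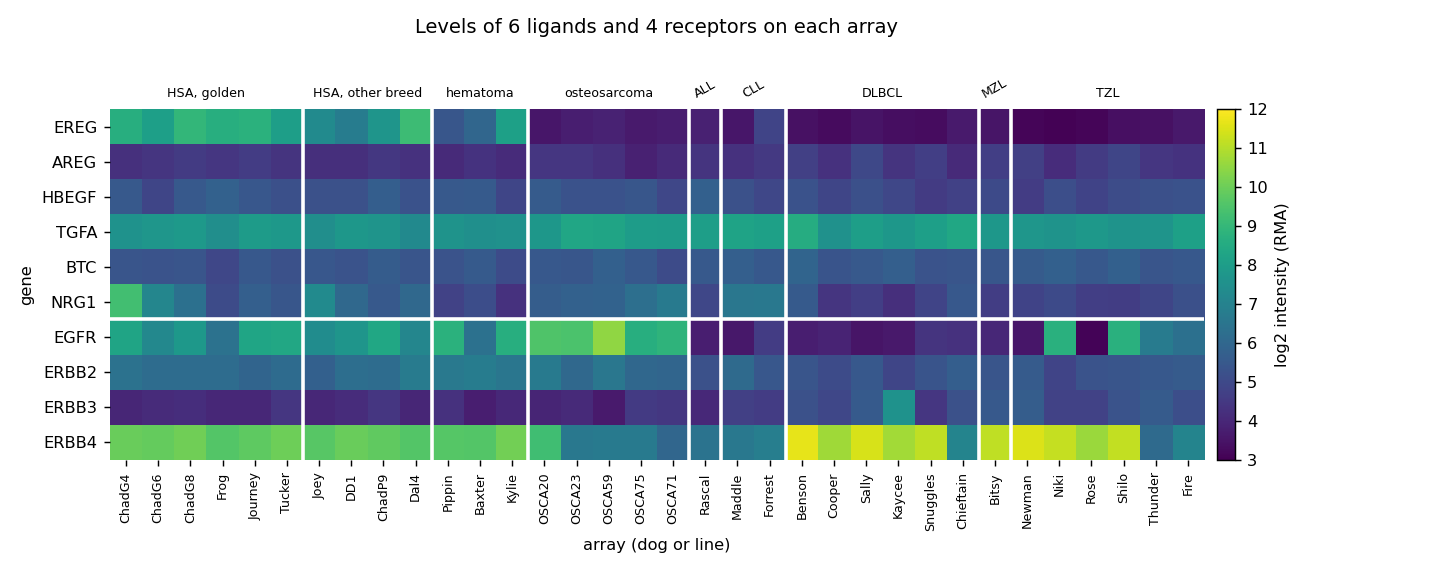
Log2 intensity of the 10 members (rows, ligands above receptors) on each of the 34 arrays (columns, in blocks by tumor type; HSA is hemangiosarcoma, ALL and CLL are acute lymphoblastic and chronic lymphocytic leukemia, and DLBCL, MZL and TZL are diffuse large B cell, marginal zone and T-zone lymphoma). EREG is bright in the hemangiosarcoma block and in 1 of 3 hematomas, and AREG is dark on all 34 arrays.

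EREG, the gene of epiregulin, was the ligand that set hemangiosarcoma apart from the other tumors. Its levels were 8.63 (ChadG4), 8.09 (ChadG6), 8.94 (ChadG8), 8.64 (Frog), 8.74 (Journey) and 8.03 (Tucker) in golden retriever lines. They were 7.31 (Joey), 6.78 (DD1), 7.68 (ChadP9) and 9.17 (Dal4) in lines of other breeds. All 10 lines thus lay above the array medians, which ran from 5.57 to 5.77. Hematoma cultures gave 5.41 (Pippin), 5.99 (Baxter) and 8.11 (Kylie), and Kylie fell among the hemangiosarcoma lines. Osteosarcoma lines gave 3.55 to 3.87 and leukemia and lymphoma samples 3.06 to 4.85, with the highest in Forrest, a chronic lymphocytic leukemia. None of these 21 samples reached the lowest hemangiosarcoma line.

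EREG averaged 8.20 ± 0.77 in hemangiosarcoma lines (SD, n = 10) and 3.71 ± 0.12 in osteosarcoma lines (SD, n = 5), a 22.4-fold difference in intensity. Against the 16 leukemias and lymphomas, which averaged 3.49 ± 0.42 (SD), the difference was 26.2-fold. EREG was under the array median on all of those arrays, so these folds are ratios of intensities and not of transcript numbers. Against hematoma cultures, at 6.50 ± 1.42 (SD, n = 3), the means differed by 1.70 log2 units, or 3.24-fold, and the groups overlapped through Kylie. Without Kylie the difference was 2.50 log2 units and the groups did not overlap, and without Pippin it was 1.15. In the order of tumor types by mean EREG, hemangiosarcoma and hematoma came first and second and overlapped, and hematoma did not overlap with any group below it. EREG has a single probe set here, so its level has no second reading on the array. AREG, the gene next to EREG in the dog gene table, stayed between 3.82 and 4.96, and EPGN, the ligand gene on the other side of EREG, did not exceed 3.87 in any hemangiosarcoma line.

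**Figure D2:**
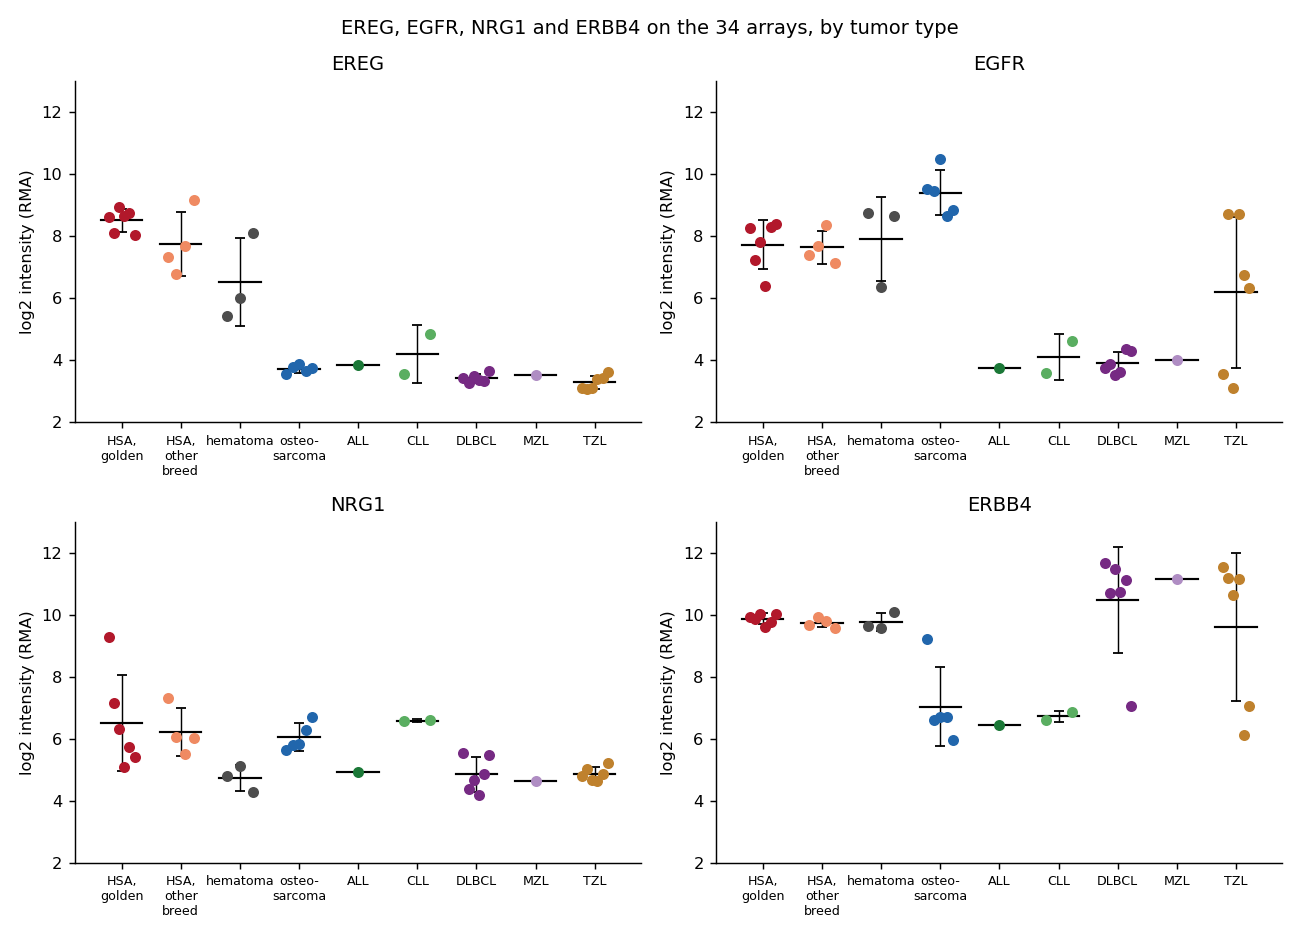
Log2 intensity of EREG, EGFR, NRG1 and ERBB4 by tumor type (abbreviations as in the plot of all members). Points are arrays, horizontal lines are means and error bars SDs, drawn where a group has more than 1 array. EREG is between 6.78 and 9.17 in all 10 hemangiosarcoma lines and at or below 4.85 in all osteosarcoma, leukemia and lymphoma samples.

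NRG1, or neuregulin 1, differed more among hemangiosarcoma lines than any other ligand did. ChadG4 reached 9.28, and Joey, ChadG6 and ChadG8 had 7.31, 7.14 and 6.31. DD1, Dal4, Journey, ChadP9, Tucker and Frog had 6.04, 6.03, 5.73, 5.51, 5.41 and 5.07. ChadG4 therefore stood well above the next line, and 3 of the 10 lines lay at or under their array's median. Hematoma cultures had 4.78 (Pippin), 5.13 (Baxter) and 4.27 (Kylie), all under the median. Osteosarcoma lines had 5.64, 5.81, 5.82, 6.29 and 6.71, within the range of the hemangiosarcoma lines. Both chronic lymphocytic leukemias, Maddle and Forrest, were at 6.56 and 6.61, while the other 14 leukemia and lymphoma samples did not exceed 5.55.

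The mean of NRG1 was 6.38 ± 1.24 in hemangiosarcoma lines (SD, n = 10), against 4.73 ± 0.43 in hematoma cultures (SD, n = 3), a 3.15-fold difference between groups that overlapped. Frog was the only line below the hematoma Baxter. A second NRG1 probe set followed the first over the 34 arrays (Pearson r = 0.92). On it hemangiosarcoma lines had 5.02 to 8.01 and hematoma cultures 4.12 to 4.62, without overlap, and ChadG4 was again the highest of all arrays. Against osteosarcoma the difference was 0.33 log2 units on the first probe set and -0.18 on the second, so its direction was not settled. The third probe set was under the median on every array.

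The other ligands varied little, and each overlapped between hemangiosarcoma and hematoma, osteosarcoma or the 16 leukemias and lymphomas together. TGFA, transforming growth factor alpha, averaged 7.65 ± 0.20 in hemangiosarcoma lines (SD, n = 10), 7.56 ± 0.08 in hematoma cultures (SD, n = 3), 8.05 ± 0.24 in osteosarcoma lines (SD, n = 5) and 7.94 ± 0.30 in leukemias and lymphomas (SD, n = 16). The 3 leukemias, at 8.04, 8.11 and 8.23, were above the highest hemangiosarcoma line, at 7.95. On its other 2 probe sets, which each were above the array median on 2 of 34 arrays, hemangiosarcoma lines ran from 4.36 to 5.30. Whether TGFA was above the median in these cells therefore depends on the probe set. HBEGF, heparin-binding EGF-like growth factor, ran from 4.89 to 5.78 in hemangiosarcoma lines and was above the median in Frog and ChadP9 only. BTC, betacellulin, ran from 4.92 to 5.63 there and exceeded the median in none of the 10 lines. Of ligands outside the 10 members, EGF, NRG2 and NRG3 stayed under the median in all cultured cells, and EGF exceeded it on 1 array, at 6.16 in Forrest. EPGN, or epigen, was above it on 2 arrays, at 8.19 in the diffuse large B cell lymphoma Cooper and at 5.82 in the marginal zone lymphoma Bitsy.

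EGFR, the receptor of EREG, was above the array median in all 18 cultured samples on its first probe set, and was highest there in osteosarcoma. Hemangiosarcoma lines had 8.27 (ChadG4), 7.21 (ChadG6), 7.80 (ChadG8), 6.39 (Frog), 8.28 (Journey), 8.38 (Tucker), 7.37 (Joey), 7.68 (DD1), 8.37 (ChadP9) and 7.12 (Dal4). Hematoma cultures had 8.73 (Pippin), 6.35 (Baxter) and 8.66 (Kylie), and osteosarcoma lines 9.51, 9.45, 10.50, 8.66 and 8.85. Every osteosarcoma line was above every hemangiosarcoma line, while hematoma cultures lay on both sides of the hemangiosarcoma range. The mean was 7.69 ± 0.67 in hemangiosarcoma (SD, n = 10) and 9.39 ± 0.72 in osteosarcoma (SD, n = 5), a log2 difference of -1.71, or 3.26-fold lower. Against hematoma, at 7.91 ± 1.36 (SD, n = 3), it was -0.23, which turned to 0.19 without Pippin and to 0.15 without Kylie and was -1.01 without Baxter.

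T-zone lymphoma was split in EGFR where the other primary cells were not. Niki and Shilo were at 8.72 and 8.70, Thunder and Fire at 6.74 and 6.31, and Newman and Rose at 3.55 and 3.09. The other 10 leukemia and lymphoma samples had 3.51 to 4.61, so the 4 high T-zone samples stood apart from all other primary cells. Mural cell and fibroblast markers averaged 5.86, 6.39, 5.49 and 6.08 in Niki, Shilo, Thunder and Fire and 5.43 and 4.91 in Newman and Rose, with 5, 5, 4 and 6 against 3 and 1 of the 9 markers above the array median. All 18 cultured samples averaged 9.70 or more for these markers. The highest average among leukemias and lymphomas was 7.98, with 6 of 9 above the median, in the diffuse large B cell lymphoma Snuggles, whose EGFR was 4.36. Epithelial markers averaged 5.47, 5.19, 5.78 and 5.79 in the first 4 dogs and 5.09 and 5.78 in Newman and Rose. The actin control read higher at its 3′ than at its 5′ end, as broken-down RNA does, in Thunder and Fire, by 2.19 and 1.73 log2 units, while this difference was -1.81 to -1.39 in the other 4. The part of other cells or of RNA quality in the EGFR levels was not tested. Here, as in any bulk sample, fewer cells of a type and less RNA per cell cannot be told apart.

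EGFR had a second probe set that was above the array median on 3 of 34 arrays, at 4.07 to 6.09 over all of them, and correlated with the first by r = 0.55 over the 34 arrays. Its highest arrays were the osteosarcoma line OSCA20 at 6.09 and the hemangiosarcoma line ChadP9 at 5.93, and Niki stood highest of the lymphoid samples on it, at 5.19. Hemangiosarcoma averaged 5.06 ± 0.43 (SD, n = 10) on this probe set and osteosarcoma 4.71 ± 0.81 (SD, n = 5), a difference of 0.35 in the opposite direction to the first. The lower EGFR in hemangiosarcoma than in osteosarcoma thus rests on 1 probe set. Of all probe sets, one that carries no gene symbol was most like the first EGFR probe set (r = 0.96), and Niki and Shilo were high on it too, at 7.53 and 7.56, with 4.97 and 4.44 in Newman and Rose.

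**Figure D3:**
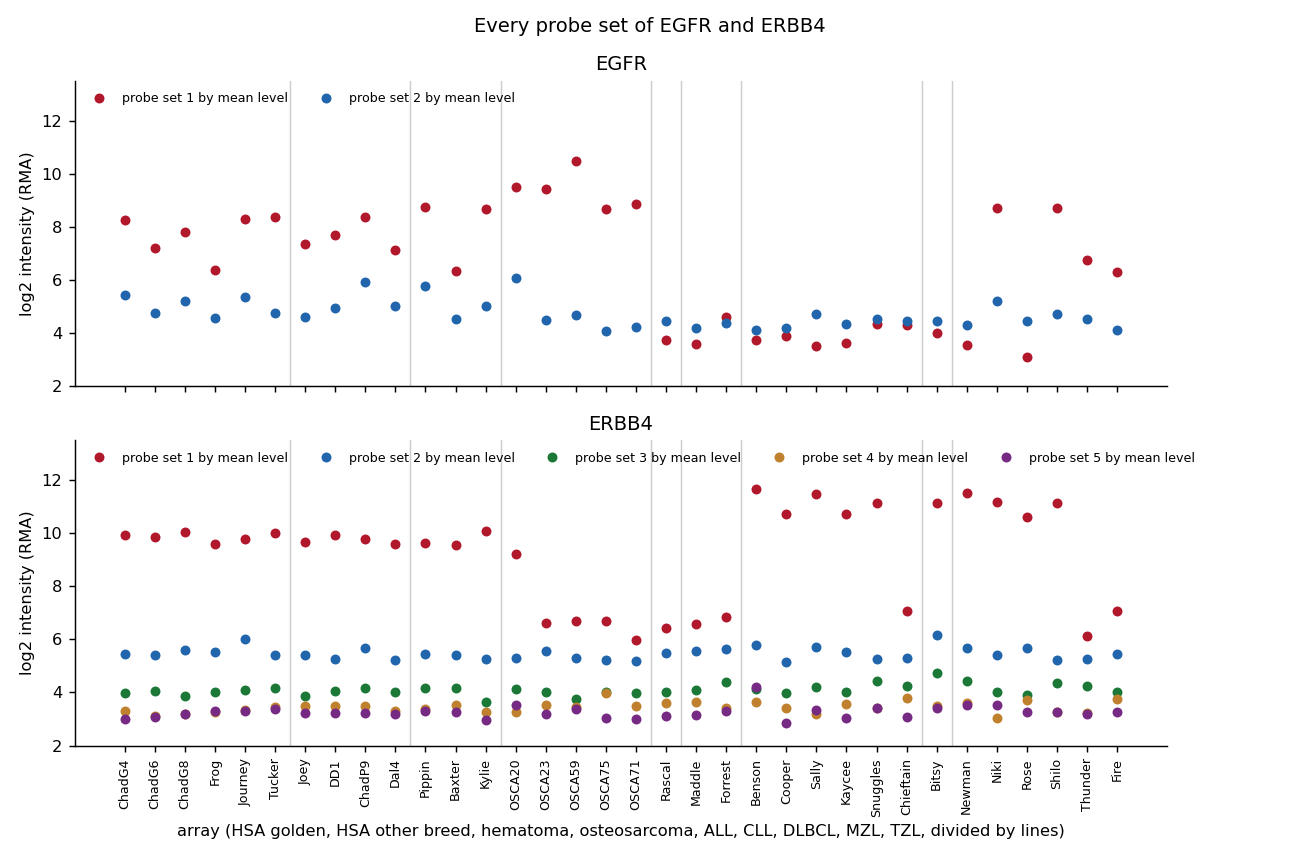
Log2 intensity of each EGFR probe set (upper panel, 2 probe sets) and each ERBB4 probe set (lower panel, 5 probe sets) on the 34 arrays, with vertical lines between tumor types. The second EGFR probe set stays at or below 6.09, and ERBB4 probe sets 2 to 5 stay at or below 6.15 on arrays where the first reads up to 11.68.

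ERBB2, the partner receptor without a ligand, was above the median on all 18 cultured arrays. It averaged 6.19 ± 0.26 in hemangiosarcoma lines (SD, n = 10, 5.77 to 6.74) and 6.66 ± 0.14 in hematoma cultures (SD, n = 3, 6.52 to 6.80). Dal4, at 6.74, was the only hemangiosarcoma line that reached the hematoma range. Osteosarcoma lines averaged 6.25 ± 0.37 (SD, n = 5), 0.06 from hemangiosarcoma. Leukemias and lymphomas averaged 5.39 ± 0.31 (SD, n = 16), so hemangiosarcoma was 1.75-fold higher, with overlap through Maddle at 6.12.

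ERBB3, the receptor with the weak kinase, was low in all cultures, at 3.97 to 4.44 in hemangiosarcoma lines, 3.75 to 4.29 in hematoma cultures and 3.65 to 4.52 in osteosarcoma lines. Leukemias and lymphomas averaged 5.19 ± 0.79 (SD, n = 16), against which hemangiosarcoma, at 4.12 ± 0.18 (SD, n = 10), was lower by 1.07 log2 units. A single sample exceeded its array's median, the diffuse large B cell lymphoma Kaycee at 7.58. The other 5 lymphomas of that type had 4.42 to 5.56. Kaycee also had the highest epithelial marker average of the 34 arrays, 6.87, with 6 of 11 markers above the median. EPCAM, an epithelial adhesion molecule, was 10.92 in Kaycee and 3.59 to 5.19 in the other 5, and KRT18, a keratin, was 10.98 there and 4.68 to 7.03 in the others. The part of epithelial cells in the ERBB3 level was not tested.

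ERBB4 gave readings that depended on the probe set. Its first probe set read 9.58 to 10.03 in hemangiosarcoma lines and 9.57 to 10.10 in hematoma cultures. In osteosarcoma it read 9.22 in OSCA20 and 5.96 to 6.70 in the other 4 lines. Hemangiosarcoma averaged 9.82 ± 0.16 (SD, n = 10) and osteosarcoma 7.04 ± 1.26 (SD, n = 5), a 6.89-fold difference without overlap. The 3 leukemias read 6.44 to 6.85. Of the lymphomas, Chieftain, Thunder and Fire read 7.07, 6.11 and 7.05 and the other 10 read 10.63 to 11.68, so that no level between 7.07 and 9.22 occurred on any array.

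The other 4 ERBB4 probe sets stayed between 2.85 and 6.15 and did not show this pattern, with correlations of -0.35 to 0.36 with the first over the 34 arrays. On them the log2 difference of hemangiosarcoma and osteosarcoma was 0.19, 0.05, -0.20 and -0.01. The pattern of the first probe set was shared with 28 other probe sets at r above 0.9, 16 of which have a gene symbol. The most like it were those of EHHADH (r = 0.99), a peroxisomal enzyme, RSPH9 (r = 0.98), a protein of the cilium, and SOX6 (r = 0.95), a transcription factor. EHHADH read 9.82 in OSCA20 and 7.18 to 7.61 in the other 4 osteosarcoma lines, 7.68 in Chieftain, 7.38 in Thunder and 8.38 in Fire, and 9.85 to 10.37 in hemangiosarcoma lines. The signal of the actin control at its 3′ end exceeded that at its 5′ end, a measure of RNA breakdown, by 1.73 to 5.35 log2 units in the 3 leukemias, Chieftain, Thunder and Fire and by no more than 1.31 in the other 10 lymphomas. In osteosarcoma it was 0.76 in OSCA20 and 0.40, 1.80, 1.85 and 1.55 in OSCA23, OSCA59, OSCA75 and OSCA71. The part of RNA quality in the ERBB4 readings was not tested.

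Counted over the 10 members, hemangiosarcoma lines did not overlap with osteosarcoma lines in 3, EREG and ERBB4 higher and EGFR lower. With the second probe set of the genes that have several, the count was 1, EREG, since ERBB4 then differed by 0.19 and EGFR by 0.35 with overlap. Of all 15115 genes, 4.61% did not overlap there (2.12% higher and 2.49% lower). EREG alone did not overlap with the 16 leukemias and lymphomas, where 9.5% of all genes did not (5.23% higher and 4.27% lower). Against hematoma cultures 0 of 10 members were free of overlap and 1.75% of all genes were (1.37% higher and 0.384% lower). These counts use the values by which the members were picked and carry no test. The 3 comparisons share the hemangiosarcoma lines.

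Ligand and receptor were read together on the same array in the hemangiosarcoma cells. EREG and EGFR were both above the array median in 10 of 10 hemangiosarcoma lines and in 2 of 3 hematoma cultures, Baxter and Kylie. All EGFR readings in this paragraph are those of its first probe set, since the second was above the median on only 3 of 34 arrays. In all 5 osteosarcoma lines and in 4 T-zone lymphomas EGFR was above it without EREG, and in the other 12 leukemias and lymphomas neither was. NRG1 was above it in 7 hemangiosarcoma lines and 4 osteosarcoma lines, but its receptor ERBB3 in none of these, and ERBB4, its other receptor, rests on 1 probe set of 5. EGFR and its partner ERBB2 were both above it in all 18 cultures and in none of the 16 leukemia and lymphoma samples. In the plot of EREG against EGFR, the 10 hemangiosarcoma lines and Kylie lie highest in EREG. Kylie's EGFR, at 8.66, was above the hemangiosarcoma range of 6.39 to 8.38. Baxter, with EREG at 5.99 and EGFR at 6.35, lay below that of every hemangiosarcoma line in both.

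**Figure D4:**
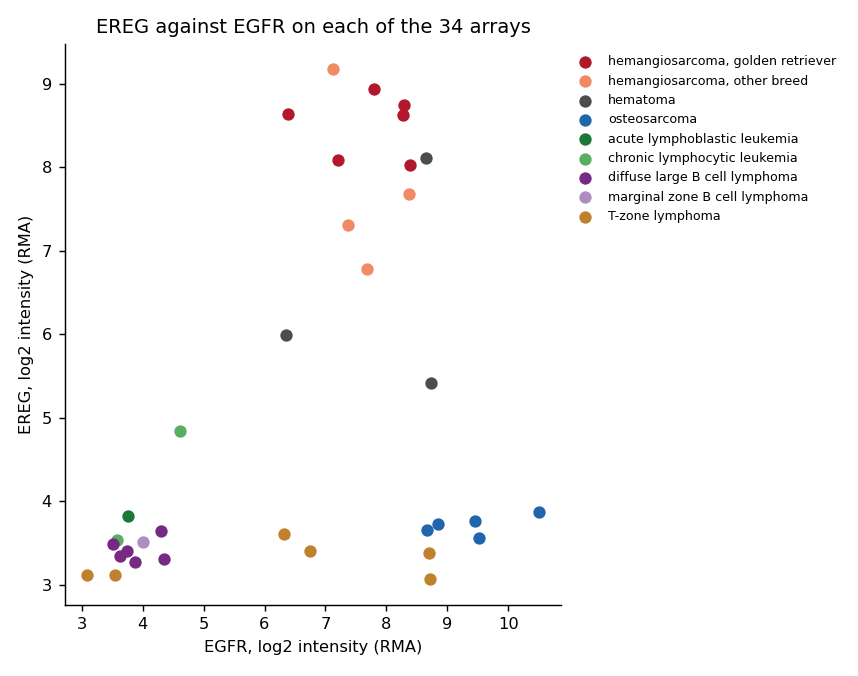
EREG (vertical) against EGFR (horizontal), both as log2 intensity, on each of the 34 arrays, colored by tumor type. The 10 hemangiosarcoma lines have EREG of 6.78 to 9.17 and EGFR of 6.39 to 8.38, while the 5 osteosarcoma lines have EGFR of 8.66 to 10.50 with EREG of 3.55 to 3.87.

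Among the hemangiosarcoma lines the members could be tested, since breed and the spread among lines played no part in choosing them. Golden retriever lines averaged 8.51 for EREG and lines of other breeds 7.73, a difference of 0.78 (SE 0.40) that did not pass limma's test (adjusted p = 0.999, unadjusted p = 0.0796). All 6 golden retriever lines were above 3 of the 4 others, and Dal4 was above all of them. NRG1 differed by 0.27 (SE 0.74), TGFA by 0.19 (SE 0.15), ERBB4 by 0.13 (SE 0.13), EGFR by 0.09 (SE 0.41) and ERBB2 by -0.07 (SE 0.18), each with an adjusted p of 0.999. AREG, HBEGF, BTC and ERBB3 did not meet the minimum level for this test. Over all 9365 genes tested, 0.0% passed in either direction at an adjusted p of 0.1. At an unadjusted p under 0.05, limma had 228 probe sets higher and 513 lower of 22206. The methods' t-test had 204 and 494, of which 0 passed after adjustment.

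No pair of members varied together across the 10 hemangiosarcoma lines past the adjusted threshold of 0.05. The 6 members above the median in at least 5 lines made 15 pairs, and Pearson and Spearman permutation tests with 100000 resamples passed 0 of them (1 and 2 at an unadjusted p under 0.05). TGFA and ERBB4 came closest, with r = 0.72 (permutation p = 0.0189, adjusted 0.284) and rho = 0.71 (permutation p = 0.0266, adjusted 0.373), and r was 0.89 without Dal4 and Journey. The ERBB4 probe set used here correlated with the other 4 of that gene by -0.16 to 0.09 over the 10 lines, so the pair rests on 1 reading of ERBB4. Left without Journey alone, this pair passed, with r = 0.92 (permutation, adjusted p = 0.00806). TGFA and EGFR had r = 0.62 (permutation p = 0.0594, adjusted 0.297) and rho = 0.65 (permutation p = 0.0497, adjusted 0.373), and r was 0.52 without Dal4 and Journey. EREG showed no such relation to its receptor EGFR, with r = -0.13 (permutation p = 0.716, adjusted 0.874) and rho = -0.25 (permutation p = 0.491, adjusted 0.858), and r was -0.37 without DD1 and Joey. Each array carries a name of its own, and 1 array stands for each line, so the p-values measure the spread between these samples. The dogs Frog and Journey were distantly related.

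Genes with the pattern most like each variable member were found by Pearson correlation over the 34 arrays, as a description in which tumor types weigh heavily. EREG was most like SCN9A, a sodium channel (r = 0.94), ADGRL3, an adhesion receptor (r = 0.93), and EPHA2, a receptor of ephrins (r = 0.92). SCN9A ran from 6.24 to 7.26 in hemangiosarcoma lines, 5.22 to 6.77 in hematoma cultures and 3.01 to 4.64 in osteosarcoma lines, and, as for EREG, hematoma reached into the hemangiosarcoma range. NRG1 was most like ALOX15B, a lipoxygenase (r = 0.81), PTGFR, a prostaglandin receptor (r = 0.79), and TSPAN8, a tetraspanin (r = 0.76). EGFR was most like TJP1, a tight junction protein (r = 0.88), CCN1, a matrix protein (r = 0.88), and RBP4, which carries retinol (r = 0.86). ERBB3 was most like CCR1, a chemokine receptor (r = 0.88), PATJ, a protein of cell junctions (r = 0.87), and CD1E, of the lipid-presenting CD1 family (r = 0.85).

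The other genes of the pathway were taken from 5 lists, of other EGF family ligands, shedding and trafficking, signal transducers, negative regulators, and genes that growth factors induce. Of 73 genes listed, 62 have a probe set of their own on the array. These genes were tested with limma, whose p values were adjusted over all probe sets of the comparison. The other ligands did not meet the minimum level in any comparison. A gene could meet it through the group where it was higher alone, so the counts of genes that passed can include such genes. The lists were made with earlier results of these data known, so their counts are set beside those of all genes and are not tested as lists.

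Against hematoma, 1 of 53 pathway genes passed at an adjusted p of 0.1, EPHA2, which was higher in hemangiosarcoma. Of all genes, 0.143% were higher and 0.113% lower at that threshold. EPHA2 averaged 8.21 in the 10 hemangiosarcoma lines and 6.22 in hematoma cultures, a log2 difference of 1.99 (SE 0.34, limma adjusted p = 0.0432). Its levels ran from 7.27 to 8.58 in hemangiosarcoma lines, above 6.96, 5.16 and 6.54 in Pippin, Baxter and Kylie. EPHA2 is also among the genes that the study singled out on these arrays, so its result is not independent of that choice. It did not pass without Baxter (1.46, limma adjusted p = 0.227) or by the methods' t-test (adjusted p = 0.15). The 14 growth factor induced genes had a median difference of 0.45, against 0.04 for all genes tested. Of these 14, 10 had a positive difference, and EPHA2 alone passed.

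Against osteosarcoma, the 6 golden retriever hemangiosarcoma lines were set beside the 5 osteosarcoma lines. Of 11 negative regulators tested, the hemangiosarcoma lines were higher in 6 at an adjusted p of 0.05. LRIG3 alone was lower, and its call is set aside below, since it met the minimum level only through the osteosarcoma lines. SPRY1 has the reverse limit. It ran from 4.98 to 5.52 in osteosarcoma lines, under the array median on each, so it could meet the minimum level through the hemangiosarcoma lines alone. The count of regulators that were higher was not reduced for this. The median difference of the 11 was 1.21 against -0.01 for all genes. Of all genes, 8.1% were higher and 7.1% lower. DUSP6, a phosphatase that acts on ERK, averaged 11.52 in golden retriever hemangiosarcoma lines and 8.94 in osteosarcoma lines, a difference of 2.58 (SE 0.41, limma adjusted p = 0.00277). ERRFI1, or MIG6, which binds and inhibits EGFR, averaged 11.91 and 9.46, a difference of 2.45 (SE 0.35, limma adjusted p = 0.00166). The 6 golden retriever lines had ERRFI1 of 11.07 to 12.95 and DUSP6 of 10.84 to 12.03, while osteosarcoma lines had 8.78 to 10.21 and 7.66 to 10.27, so neither gene overlapped. DUSP5, another phosphatase of ERK, was higher by 1.77, and the other 3 that passed by 1.17 to 1.29. The count of regulators that were higher was 4 without OSCA59 and 5 to 7 without any other single osteosarcoma line.

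LRIG3, a membrane protein of a family that regulates ERBB receptors, went the other way. It averaged 3.83 in the 6 golden retriever hemangiosarcoma lines and 7.14 in osteosarcoma lines, a difference of -3.31 in intensity. LRIG3 was under the array median in every hemangiosarcoma line and met the minimum level only through the osteosarcoma lines, so no p-value is given. All 10 hemangiosarcoma lines had 3.36 to 4.39, and osteosarcoma lines had 6.34 to 7.90. Hematoma cultures, at 3.72 to 4.39, and leukemias and lymphomas, at 3.59 to 5.02, did not reach the osteosarcoma range either. Of 14 growth factor induced genes, 3 were higher and 0 lower, EPHA2 by 2.86 (SE 0.24), PHLDA1 by 1.92 (SE 0.50) and ETV1, an ETS family transcription factor, by 1.70 (SE 0.24), with a list median of 0.58. Among 18 signal transducers, the phosphatase PTPN11 was higher by 0.99 and the GTPase HRAS lower by 0.62, and among 7 shedding genes TIMP3, an inhibitor of ADAM proteinases, was lower by 1.79. Of the genes named in this comparison, PTPN11, HRAS, DUSP5 and PHLDA1 missed the threshold when a single osteosarcoma line was left out. Their limma adjusted p then ran up to 0.0837. The lower count of regulators without OSCA59, given above, also takes in a loss among those not named.

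**Figure D5:**
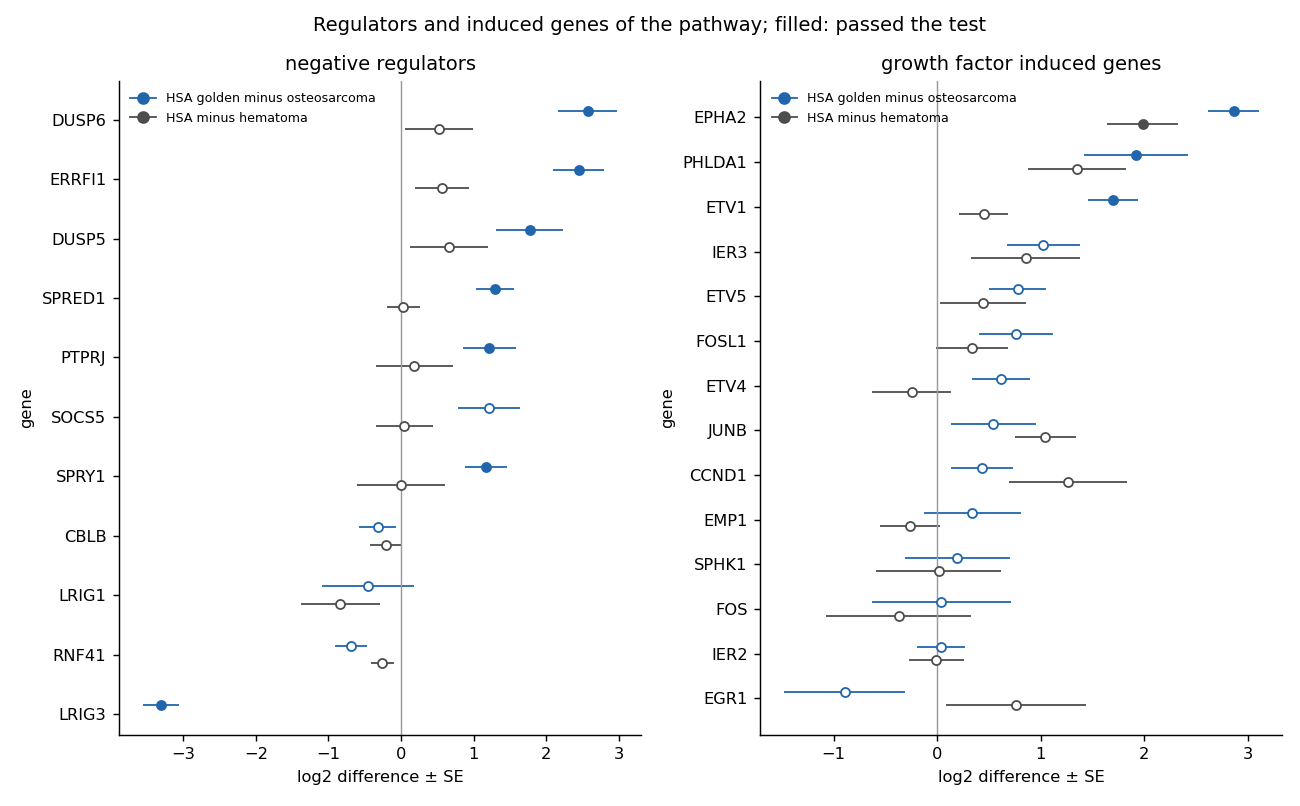
Log2 differences with their SE for the negative regulators (left) and the growth factor induced genes (right) tested against osteosarcoma, for golden retriever hemangiosarcoma lines minus osteosarcoma lines (blue) and all hemangiosarcoma lines minus hematoma cultures (gray). Filled points passed the test of their comparison: of the negative regulators 7 in blue and 0 in gray, of the induced genes 3 in blue and 1 in gray. LRIG3, 1 of those 7, met the minimum level only through the osteosarcoma lines, so its call is set aside. Against hematoma LRIG3 was below the minimum level. SPRY1 was under the array median in every osteosarcoma line and could meet the minimum level through the hemangiosarcoma lines alone.

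Against leukemia and lymphoma, 19 of 50 pathway genes were higher and 3 lower in the 6 golden retriever hemangiosarcoma lines at an adjusted p of 0.001, where 14.2% of all genes were higher and 11.3% lower. Of 14 growth factor induced genes, 9 were higher and 2 lower, with a median difference of 1.84 against -0.13 for all genes. CCND1, PHLDA1 and ETV1 were higher by 4.43, 4.35 and 3.97, with a limma adjusted p of 6.62e-09 for CCND1. In leukemias and lymphomas PHLDA1 ran from 4.42 to 7.08 and ETV1 from 4.34 to 5.88, with medians of 5.34 and 4.95. PHLDA1 and ETV1 could meet the minimum level through the 6 hemangiosarcoma lines alone, so no p-value is given for them. The 2 that were lower, FOS and IER2, immediate early genes, averaged 9.26 and 10.72 in those 6 lines and 13.02 and 12.68 in leukemias and lymphomas. They were named after their values were seen. In the shedding list, 3 of 8 genes were higher and 0 lower: RHBDF1, an inactive rhomboid protein, by 3.99, the proteinase ADAM9 by 2.96 and TIMP3 by 2.15. Another TIMP3 probe set differed by 0.81 and did not pass. Of 10 negative regulators, ERRFI1, SPRED1 and SPRY1 were higher by 4.07, 2.66 and 1.42 and 0 were lower. In leukemias and lymphomas SPRED1 ran from 4.11 to 5.34, under the array median on each, and SPRY1 from 4.36 to 5.78. EPHA2, an induced gene, and PTPN11, a signal transducer, were also under it on each, at 4.03 to 4.85 and 3.42 to 4.98. SPRED1, EPHA2 and PTPN11 could meet the minimum level only through the 6 hemangiosarcoma lines. The counts in this comparison were not reduced for such genes. Of 18 signal transducers, 4 were higher, among them EPS8, an EGFR substrate, by 3.40, and PIK3R1, a PI3 kinase subunit, was lower by 1.86 (limma adjusted p = 9.71e-04). PIK3R1 did not pass without the minimum level or with the arrays centered on their medians (limma adjusted p = 0.00152 and 0.00115).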

How the data were processed

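The authors deposited log2 intensities of 43035 probe sets on 34 arrays, made with RMA in affy according to the submitters' processing notes, without versions. Values ran from 2.03 to 14.98, and 0 columns belonged to no sample. No further normalization was applied. Leaving out 175 controls, 29254 probe sets carried 1 symbol, 439 several and 13167 none, by the array annotation. All 19 member probe sets matched the RefSeq table of UU_Cfam_GSD_1.0, used for names and neighbors only. The probe set with the highest mean over 34 arrays stood for a gene. The members and lists were chosen with earlier results of these data known. Named were all members, up to 4 passing pathway genes per list and comparison with the largest differences, and the 3 genes most like each member spanning 3 log2 units. Groups followed the labels. Differences were fitted in R 4.3.3 by limma 3.58.1 and adjusted by the Benjamini-Hochberg method, on probe sets above the array median on at least 4 (breed), 3 (hematoma), 5 (osteosarcoma) or 6 (leukemia and lymphoma) arrays. They were tested on simulated data. Alternatives tried were other probe sets, no minimum level, centering, quantile normalization, a trend with a robust prior, the methods' t-test, medians, subsets of samples, and leaving out single samples. Correlations and figures used Python 3.11.15. The number of arrays limits the precision. According to the methods 1 sample was run on 2 chips, which the labels do not identify.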

Additional observations from a re-analysis of the deposited data

Results flagged for a closer look

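In 5 of 40 groups of 5 to 10 arrays, over the 10 members, the highest or lowest array stood apart by Dixon's criterion, which chance meets in about 1 group in 20. TGFA was 8.12 in the T-zone lymphoma Fire and 7.61 to 7.78 in the other 5. NRG1 was 9.28 in the hemangiosarcoma line ChadG4 and 5.07 to 7.31 in the other 9. ERBB3 was 7.58 in the diffuse large B cell lymphoma Kaycee and 4.42 to 5.56 in the other 5. ERBB4 was 9.22 in the osteosarcoma line OSCA20 and 5.96 to 6.70 in the other 4, and 7.07 in the diffuse large B cell lymphoma Chieftain and 10.71 to 11.68 in the other 5. The spread of EGFR in T-zone lymphoma, 3.09 to 8.72, did not meet the criterion.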

How the results depend on the processing

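Members without overlap between hemangiosarcoma and hematoma numbered 0. The count was 1 with the second probe set of each gene (NRG1), 1 with golden retriever lines only and 1 without ChadG4 and Dal4 (ERBB2, lower), and 0 to 3 when single samples were left out (3 without Baxter, 1 without Kylie). Against osteosarcoma it was 3, and 1 with second probe sets. Pathway genes that passed against hematoma numbered 1, but 0 by the methods' t-test, 3 without ChadG4 and Dal4, and 0 to 1 without single samples (0 without Baxter). Against osteosarcoma they numbered 13, with LRIG3 among them, 22 with all 10 hemangiosarcoma lines and 10 to 17 without single lines. Probe sets that differed by breed numbered 0, and 0 to 1 without single lines (1 without ChadG4, 1 without DD1). Pairs of members that passed numbered 0, and 0 to 1 without single lines (1 without Journey). The other 63 recomputed counts stayed within 1.5 times the reported ones, and named pathway genes passed in 180 recomputed tests and no longer did in 12. The difference by breed, which passed for no member, changed sign without single lines: it ran from -0.29 (without ChadG4) to 0.63 (without Joey) for NRG1, from -0.23 (without Joey) to 0.10 (without Dal4) for ERBB2 and from -0.086 (without Dal4) to 0.35 (without Frog) for EGFR, where it was also negative without ChadG4 (-0.02), Journey (-0.03), Tucker (-0.05) or Joey (-0.0033). The causes were not tested. With 3 hematomas, 1 of them decides several values. No paired analysis was possible because each array carries a name of its own, with a single tumor type.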
